A study of Mus musculus with 12 samples.

Results

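The immediate early response was followed through mouse spleen by 10 of its genes: the AP-1 subunits Jun, Junb, Fos and Fosb, the zinc finger factors Egr1 and Egr2, the mRNA decay factor Zfp36, the phosphatase Dusp1, the nuclear protein Ier2 and the nuclear receptor Nr4a1. Each was taken as the row of the count table whose Ensembl identifier carries that symbol in the GRCm38 annotation, which gave 10 of the 53715 genes in the table. RNA was sequenced from 12 spleen samples in 3 groups of 4. Every sample, the controls included, was called Yaa DKO: the lupus-prone BXSB background (BXSB.Cg) with Yaa, a stretch of X chromosome holding Tlr7 that is copied onto the Y chromosome, and the targeted alleles Cd8atm1Mak and Il15tm1Imx. The groups were untreated spleens at 6 weeks of age, which the design calls pre-symptomatic, untreated spleens at 10 weeks, which it calls symptomatic, and spleens at 10 weeks from animals given 2-deoxyglucose (2DG) at 6 g/L in the drinking water. 2DG is a glucose analogue that blocks glycolysis. There was no wild-type spleen, no 2DG group at 6 weeks and no untreated BXSB spleen with intact Cd8a and Il15 among these libraries. The labels do not state that each sample came from its own mouse, so the p-values measure the spread between samples, which may be technical.

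Immediate early genes are switched on within minutes of a signal, without new protein synthesis, by factors that already sit in the cell. MAP kinases phosphorylate ternary complex factors that work with serum response factor at CArG boxes, and kinases that act on CREB work through the cAMP response element (CRE). Jun and Fos family proteins pair through leucine zippers to form AP-1, which binds TGANTCA sites. In lymphoid tissue the same genes are used downstream of antigen receptors, Toll-like receptors and cytokine receptors, and several of their products (Dusp1, Zfp36) shut the response down again.

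The RefSeq promoter table (GRCm38.p6) held upstream windows for 8 of the 10 genes, and none for Ier2 and Egr1. The stretches before the RefSeq starts of Jun, Junb, Fos, Zfp36 and Dusp1 are shown because the results turn on these 5 genes. Each is written 5′ to 3′ on the gene's own strand, in lower case, and capitals mark the motif named beside it.
Jun, chr4:95052223-95052472, minus strand, 250 bases, capitals a CRE-like site: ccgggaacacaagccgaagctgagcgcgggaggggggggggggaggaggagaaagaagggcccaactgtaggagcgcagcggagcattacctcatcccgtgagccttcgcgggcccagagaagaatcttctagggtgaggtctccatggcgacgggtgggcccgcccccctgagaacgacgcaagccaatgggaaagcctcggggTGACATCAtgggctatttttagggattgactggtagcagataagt
Junb, chr8:84978749-84978998, minus strand, 250 bases, no motif marked: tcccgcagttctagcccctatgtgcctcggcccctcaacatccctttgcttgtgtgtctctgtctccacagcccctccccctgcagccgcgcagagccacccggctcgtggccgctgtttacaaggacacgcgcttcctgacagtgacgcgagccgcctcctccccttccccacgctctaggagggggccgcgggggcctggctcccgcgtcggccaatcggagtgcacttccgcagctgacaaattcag
Fos, chr12:85473640-85473889, plus strand, 250 bases, capitals a TATA box: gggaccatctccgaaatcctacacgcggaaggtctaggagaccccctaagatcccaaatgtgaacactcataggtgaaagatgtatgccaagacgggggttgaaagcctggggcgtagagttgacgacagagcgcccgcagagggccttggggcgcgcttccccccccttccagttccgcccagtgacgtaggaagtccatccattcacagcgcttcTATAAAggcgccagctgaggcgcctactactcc
Dusp1, chr17:26508523-26508722, minus strand, 200 bases, capitals a CRE: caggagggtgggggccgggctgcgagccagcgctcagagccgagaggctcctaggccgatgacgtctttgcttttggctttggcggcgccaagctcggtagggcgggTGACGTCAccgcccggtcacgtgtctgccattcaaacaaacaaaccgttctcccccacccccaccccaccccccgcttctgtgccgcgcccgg
Zfp36, chr7:28379267-28379296, minus strand, 30 bases, capitals a CArG box: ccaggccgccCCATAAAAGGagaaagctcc

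Motifs were searched on both strands in the 250 bases before each RefSeq start, over 32851 windows of 27025 genes. In the GENCODE annotation the stretches shown for Zfp36 and Dusp1 lie inside the gene (chr7:28376784-28380253 and chr17:26505590-26562128). That of Zfp36, with its CArG box, lies in annotated exon. TGANTCA, the AP-1 letters, stood in none of the 8 genes' windows, against 6.75% of all windows. TGACGTCA, the CRE, stood 143 to 136 bases before the start of Dusp1 and in 1.55% of all windows. TGANNTCA, which includes the CRE, also matched in Jun 45 to 38 bases before the start, and matched in 11.9% of all windows. CArG boxes stood before 2 of the 8 genes, and in 1.47% of all windows. The genes were Zfp36, 58 to 49 bases from its start, and Egr2, in 4 of its 5 windows. The Egr2 matches were not all separate, because these windows held either CCTTTTTTGG or CCATATATGG. GCGNGGGCG, an EGR site, stood before Fosb, Nr4a1 and Zfp36 and in 4.7% of all windows. TATAAA stood 33 to 28 bases before the start of Fos and in 12.4% of all windows. A match is a description of these letters only, and a window without one says nothing about which factors act on the gene.

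Each 6-week library held 15596040 to 22480545 counts, each untreated 10-week library 20692818 to 26079979 and each 2DG library 21581820 to 23835453. The 10 genes together took 0.0318% to 0.0475% of a library's counts. Untreated spleens at 10 weeks varied most: the biological coefficient of variation fitted within that group was 0.242, against 0.127 at 6 weeks and 0.114 with 2DG. In that group replicate 8 had a higher median correlation with the 6-week libraries (0.9905) than with its own group (0.98), and replicate 6 had the lowest median correlation with its own group of all 12 libraries (0.9739). Immunoglobulin genes took 2.79% to 4.94% of the counts in 6-week libraries, 5.11% to 10.7% in untreated 10-week libraries and 1.93% to 3.08% in 2DG libraries. Whole spleen was sequenced, so fewer cells of a type and less RNA per cell cannot be told apart in any value below. Levels are CPM (counts scaled to library size after TMM normalisation), with means ± SD over 4 libraries. The adjusted p-values come from edgeR fits of all 18542 genes tested, except where another tool is named.

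**Figure D1:**
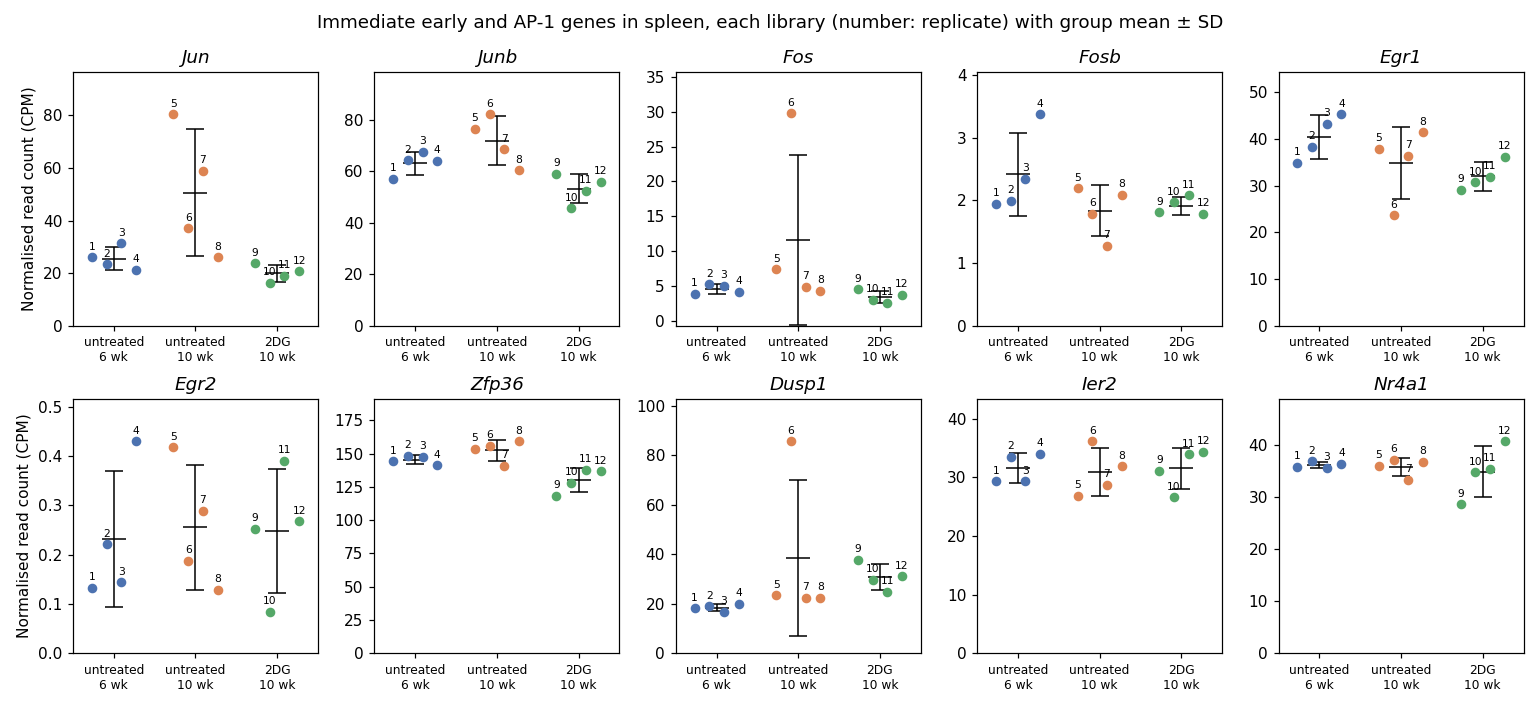
Normalised read count (CPM, vertical axis from 0 except for Fos, where the SD bar passes below 0) of each of the 10 genes in the 12 libraries, by group; points are libraries labelled by replicate number, and bars are the mean ± SD of 4. Jun was high in replicates 5 and 7, and Fos and Dusp1 were high in replicate 6, all of them untreated spleens at 10 weeks.

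Per kilobase of exon, Zfp36 was the most abundant of the 10 transcripts in each group and Egr2 the least. The length of a gene was the union of its annotated exons, which for Zfp36 was 1 block of 3470 bases. How far the order depends on that annotation was not tested. Zfp36 stood at 41.9 ± 0.956, 43.9 ± 2.31 and 37.5 ± 2.62 CPM per kb at 6 weeks, untreated at 10 weeks and with 2DG (n = 4 each). Junb followed at 27.5 ± 1.95, 31.3 ± 4.13 and 23.2 ± 2.52 CPM per kb, and Ier2 at 20.7 ± 1.68, 20.3 ± 2.67 and 20.7 ± 2.35 CPM per kb. Nr4a1, Egr1, Jun and Dusp1 formed a middle band in which neighbours in the order did not all differ beyond their spread. At 6 weeks these 4 stood at 10.3 ± 0.164, 9.02 ± 1.04, 8.00 ± 1.38 and 5.56 ± 0.422 CPM per kb, and the ranges of Egr1 and Jun given by mean ± SD overlapped. Untreated at 10 weeks the order within the band was Jun (15.9 ± 7.56), Dusp1 (11.6 ± 9.51), Nr4a1 (10.2 ± 0.488) and Egr1 (7.76 ± 1.73 CPM per kb), and mean ± SD overlapped between neighbours except between Nr4a1 and Egr1. Ier2 and Jun also overlapped in that group. With 2DG it was Nr4a1 (9.94 ± 1.41), Dusp1 (9.30 ± 1.62), Egr1 (7.13 ± 0.675) and Jun (6.26 ± 0.988 CPM per kb), with overlap between all neighbours, as there was between Junb and Ier2. Fos at 1.95 ± 0.285, 4.93 ± 5.18 and 1.47 ± 0.366 CPM per kb and Fosb at 0.387 ± 0.106, 0.294 ± 0.0656 and 0.306 ± 0.0221 CPM per kb were low throughout, apart from the wide spread of Fos in untreated spleens at 10 weeks. Egr2, which has 2 to 9 counts per library, stood at 0.0682 ± 0.0405, 0.0752 ± 0.0373 and 0.0731 ± 0.037 CPM per kb and failed the filter on low counts, which leaves 9 genes tested with that filter. With no filter edgeR tested Egr2 too, as did DESeq2, and neither called it in any of the 3 comparisons.

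The comparison of 2DG-treated with untreated spleens at 10 weeks asks what the drug changed at the symptomatic age. Jun, Junb and Zfp36 fell with 2DG. None of the 9 tested genes rose. Fosb, Egr1, Ier2 and Nr4a1 had fitted changes within 0.13 of 0 on the log2 scale, and the values of Fos and Dusp1 depended on 1 untreated library. These 3 of 9 tested genes compare with 1376 of 18542 genes called in either direction (7.42% of all tested). Lower calls made up 975 genes (5.26%) and higher calls 401 (2.16%). The median log2 change of the 9 genes was -0.23, beside 0.01 over all genes tested. At an unadjusted p under 0.05, 4 of the 9 genes passed, against 24.5% of all genes. In a fit of only the compared groups none of the 3 calls held (edgeR adjusted p = 0.0731 for Jun, 0.0744 for Junb and 0.119 for Zfp36). That fit called 581 of 18106 genes.

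Jun encodes c-Jun, the AP-1 subunit that pairs with Fos proteins and is itself activated by Jun N-terminal kinases. In replicates 5 to 8, untreated at 10 weeks, Jun stood at 80.5, 37.0, 58.9 and 26.1 CPM, and in replicates 9 to 12, with 2DG, at 23.8, 16.2, 19.1 and 20.7 CPM. Every 2DG library lay below every untreated library of the same age, though replicate 8 came within a few CPM of the highest treated library. The means were 50.6 ± 24.1 and 19.96 ± 3.15 CPM, a log2 change of -1.34 (SE 0.30, 95% interval -2.00 to -0.69, edgeR adjusted p = 0.0227). The change was -1.57 without replicate 8 (adjusted p = 0.0022, edgeR) and -1.47 without replicate 6 (adjusted p = 0.0244, edgeR). Leaving out replicate 10 or 11 ended the call, with edgeR adjusted p = 0.0817 and 0.0738, and over all 19 alternatives the adjusted p ran from 6.49e-05 to 0.0817.

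Junb encodes an AP-1 subunit that often opposes c-Jun in growth control and that activated T and B cells also use. It stood at 76.5, 82.3, 68.7 and 60.4 CPM in untreated replicates 5 to 8 and at 59.2, 45.7, 52.5 and 56.1 CPM in 2DG replicates 9 to 12. The groups did not overlap, with 60.4 CPM in replicate 8 just above 59.2 CPM in replicate 9. The means were 71.96 ± 9.51 and 53.4 ± 5.81 CPM, a log2 change of -0.43 (SE 0.10, 95% interval -0.65 to -0.21, edgeR adjusted p = 0.0245). The change was -0.51 without replicate 8 (adjusted p = 0.005, edgeR) and -0.36 without replicate 6 (adjusted p = 0.037, edgeR). The call was lost without replicate 5, 10 or 11 (edgeR adjusted p = 0.0706, 0.084 and 0.0757), and over all alternatives the adjusted p ran from 0.00339 to 0.084.

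Zfp36 encodes tristetraprolin, which binds AU-rich elements in cytokine mRNAs and brings in the deadenylation machinery. It stood at 154, 156, 141 and 159 CPM in replicates 5 to 8 and at 118, 128, 138 and 137 CPM in replicates 9 to 12. Again no 2DG library reached an untreated one, with 138 CPM as the highest treated and 141 CPM as the lowest untreated value. This separation depended on TMM scaling. By library total alone the groups overlapped, with untreated replicate 7 at 131 CPM and 2DG replicates 11 and 12 at 142 CPM. The means were 152.5 ± 8.02 and 130.2 ± 9.08 CPM, a log2 change of -0.23 (SE 0.06, 95% interval -0.36 to -0.10, edgeR adjusted p = 0.0406). This call was the least stable of the 3: it ended in 10 of 12 fits with 1 library removed, all but those without replicate 7 or 12, and over all alternatives the adjusted p ran from 0.00605 to 0.119. Without replicate 8 the change was -0.21 (adjusted p = 0.058, edgeR) and without replicate 6 it was -0.22 (adjusted p = 0.0529, edgeR). With TMM scaling, Jun, Junb and Zfp36 were the 3 genes of 9 whose 2DG libraries all lay below the untreated ones, against 7.91% of all genes tested.

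Fos, the partner of Jun in AP-1, did not pass. Its CPM in replicates 5 to 8 were 7.41, 29.8, 4.91 and 4.31, and in replicates 9 to 12 they were 4.55, 3.06, 2.55 and 3.70. Replicate 6 stood alone, and 3 of 4 treated libraries lay below all untreated ones. The log2 change was -1.74 (SE 0.57, 95% interval -2.99 to -0.48, edgeR adjusted p = 0.09). Without replicate 6 it was -0.67 (adjusted p = 0.0728, edgeR), and without replicate 8 it was -2.02 and passed (adjusted p = 0.0367, edgeR). DESeq2 called Fos lower with all libraries (adjusted p = 0.026), and over all alternatives the adjusted p ran from 0.026 to 0.214.

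Dusp1 encodes a nuclear phosphatase that switches off the p38, JNK and ERK kinases and is also a glucocorticoid target. It stood at 23.4, 85.6, 22.3 and 22.3 CPM in replicates 5 to 8 and at 37.8, 29.6, 24.8 and 31.0 CPM in replicates 9 to 12. Apart from replicate 6, every untreated library lay below every 2DG library. With all libraries the log2 change was -0.32 (SE 0.41, 95% interval -1.23 to 0.60, edgeR adjusted p = 0.696). Without replicate 6 the sign turned: the log2 change was 0.44 and passed as higher with 2DG (adjusted p = 0.0344, edgeR), the lowest adjusted p in a range over all alternatives that reached 0.96.

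The other 4 tested genes showed no call. Egr1, a zinc finger factor induced through serum response factor, stood at 37.8, 23.6, 36.4 and 41.4 CPM untreated and at 29.1, 30.7, 31.8 and 36.2 CPM with 2DG, with a log2 change of -0.12 (95% interval -0.44 to 0.20, edgeR adjusted p = 0.666). Replicate 6 was the lowest library for Egr1 and the highest for Fos and Dusp1. Nr4a1, the orphan receptor Nur77 that marks antigen receptor signalling in lymphocytes, stood at 35.9, 37.1, 33.4 and 36.8 CPM and at 28.6, 34.8, 35.4 and 40.7 CPM. Its log2 change was -0.04 (95% interval -0.23 to 0.15, edgeR adjusted p = 0.84), so a change of the size fitted for Junb lies outside that interval. Ier2 stood at 26.9 to 36.2 CPM untreated and 26.6 to 34.4 CPM with 2DG (log2 change 0.03, 95% interval -0.20 to 0.26, edgeR adjusted p = 0.905). Fosb, an AP-1 subunit like Fos, stood at 1.28 to 2.19 CPM and 1.79 to 2.08 CPM (log2 change 0.06, 95% interval -0.40 to 0.53, edgeR adjusted p = 0.896). The groups overlapped for each of these 4 genes. Egr2 stood at 0.128 to 0.417 CPM untreated and at 0.0837 to 0.390 CPM with 2DG.

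**Figure D2:**
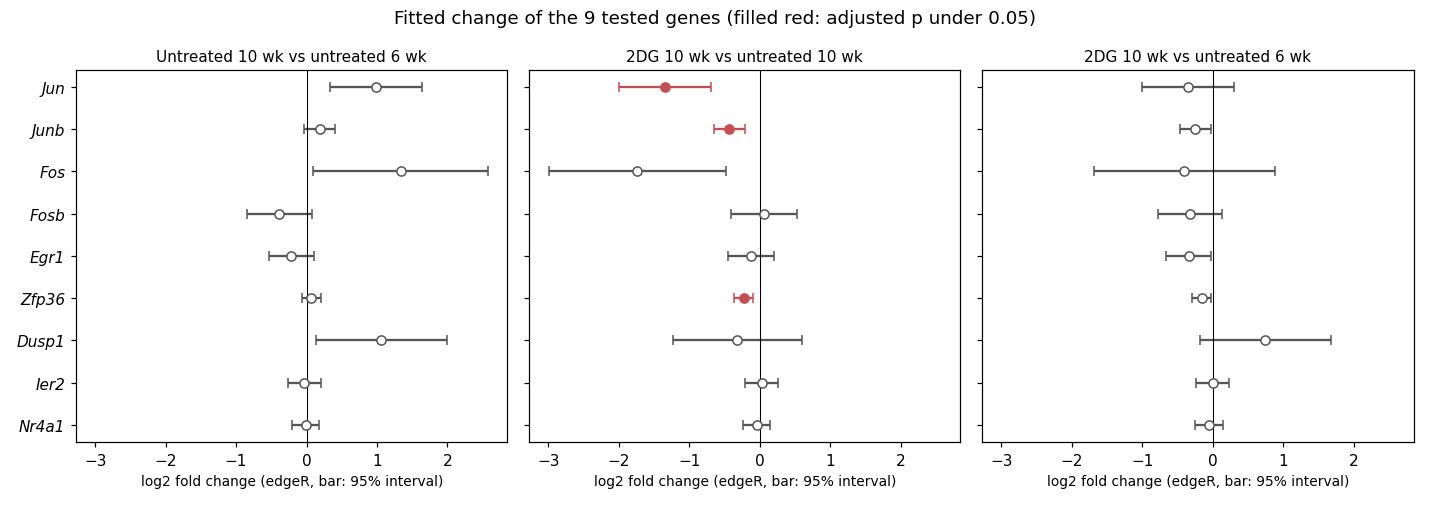
Fitted log2 fold change (horizontal axis) of the 9 tested genes in the 3 comparisons; points are edgeR estimates, bars 95% intervals, and filled red points have an adjusted p under 0.05. The filled points are Jun, Junb and Zfp36 in the 10-week comparison of 2DG with no treatment, and the widest intervals belong to Fos and Dusp1.

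The protocols name no step that marks strand, and 4 of these genes share exon bases with a gene on the opposite strand. Their counts may therefore hold reads of the partner. Jun shares 232 bases with Junos, which stood at 0.251 to 1.13 CPM. Zfp36 shares 125 bases with Gm44710, which stood at 0.247 to 0.664 CPM. Both partners were far below their gene. Junb shares 173 bases with Prdx2, a peroxiredoxin of red cells that was more abundant than Junb: 149 to 393 CPM untreated at 10 weeks and 281 to 550 CPM with 2DG. Prdx2 had a positive change with 2DG without passing (log2 change 0.77, edgeR adjusted p = 0.12), the opposite direction to Junb, and summed erythroid markers ran from 2861 to 19714 CPM untreated and from 12406 to 25928 CPM with 2DG. Dusp1 shares 11 bases with Ergic1, which averaged 102.5 ± 17.4 and 56.5 ± 3.21 CPM and was called lower (log2 change -0.86, edgeR adjusted p = 0.00176). The part of partner reads in the counts of these 4 genes was not tested.

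The comparison of untreated spleens at 10 and 6 weeks asks what differs once untreated animals reach the symptomatic age. None of the 9 tested genes passed with edgeR. Over all genes 1 of 18542 passed (0.00539%). At an unadjusted p under 0.05, 3 of the 9 genes passed (Jun, Fos and Dusp1, each higher at 10 weeks), against 17.1% of all genes. DESeq2 called 1 of them, Jun, and limma voom none, beside 682 and 0 over all genes. The median log2 change of the 9 genes was 0.07, beside 0.01 over all genes.

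Jun stood at 26.0, 23.3, 31.4 and 21.2 CPM in replicates 1 to 4 at 6 weeks, against 80.5, 37.0, 58.9 and 26.1 CPM in replicates 5 to 8. At 10 weeks 3 of 4 libraries lay above all those at 6 weeks, and replicate 8 lay among them. The log2 difference was 0.99 (SE 0.29, 95% interval 0.34 to 1.64, edgeR adjusted p = 0.15). Without replicate 8 it was 1.21 and passed (adjusted p = 0.0143, edgeR), and DESeq2 called it with all libraries (adjusted p = 0.0179), in a range over all alternatives from 0.0143 to 0.356.

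Fos stood at 3.85, 5.26, 5.02 and 4.17 CPM at 6 weeks, so that 2 of 4 libraries at 10 weeks lay above it. Its log2 difference of 1.34 (SE 0.56, edgeR adjusted p = 0.257) became 0.27 without replicate 6 (edgeR adjusted p = 0.514, from 0.0908 to 0.514 over all alternatives). Dusp1 stood at 18.0, 18.9, 16.7 and 20.0 CPM at 6 weeks, below all 4 untreated libraries at 10 weeks. With TMM scaling, Dusp1 was the 1 gene of the 9 with all 10-week libraries higher, a pattern found in 3.64% of all genes. By library total alone the groups overlapped, with 10-week replicate 7 at 20.7 CPM and 6-week replicate 4 at 20.9 CPM. The log2 difference of Dusp1 was 1.06 (SE 0.42, edgeR adjusted p = 0.235) and 0.30 without replicate 6 (edgeR adjusted p = 0.205, from 0.107 to 0.453 over all alternatives). Junb stood at 57.1, 64.3, 67.7 and 64.1 CPM at 6 weeks (log2 difference 0.19, edgeR adjusted p = 0.374) and Zfp36 at 144, 148, 148 and 141 CPM (log2 difference 0.07, edgeR adjusted p = 0.6).

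Egr1 stood at 34.9, 38.3, 43.2 and 45.3 CPM at 6 weeks, with a log2 difference at 10 weeks of -0.22 (edgeR adjusted p = 0.491). Fosb stood at 1.95 to 3.38 CPM (log2 difference -0.39, edgeR adjusted p = 0.375), Ier2 at 29.4 to 34.1 CPM (-0.03, edgeR adjusted p = 0.915) and Nr4a1 at 35.6 to 36.9 CPM (-0.01, edgeR adjusted p = 0.956). Nr4a1 varied little at 6 weeks, with a coefficient of variation of 1.59% over 4 libraries. Egr2 stood at 0.133 to 0.430 CPM.

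The comparison of 2DG-treated spleens at 10 weeks with untreated spleens at 6 weeks asks how far treated spleens of the symptomatic age lie from pre-symptomatic ones. It shares its treated libraries with the first comparison and its 6-week libraries with the second, so the 3 comparisons are not independent. None of the 9 tested genes passed, and 24 of 18542 genes did (0.129%). At an unadjusted p under 0.05, 3 of the 9 genes passed (Junb, Egr1 and Zfp36, each lower with 2DG), against 16.9% of all genes. The median log2 change of the 9 genes was -0.25, beside 0.00 over all genes. Limma voom and DESeq2 called 0 of them, beside 1312 and 902 over all genes. A fit of only the compared groups called 2 of them, and 1367 of 18139 genes over the whole fit. The 2 were Dusp1 as higher (edgeR adjusted p = 0.011) and Egr1 as lower (edgeR adjusted p = 0.0476, up to 0.486 over all alternatives).

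Dusp1 had the largest fitted difference of the 9 genes in this comparison: 24.8 to 37.8 CPM with 2DG lay above 16.7 to 20.0 CPM at 6 weeks in all 4 libraries, as in 7.98% of all genes. Its log2 difference was 0.74 (SE 0.42, 95% interval -0.19 to 1.67, edgeR adjusted p = 0.413). The shared estimate of the spread includes replicate 6, which is in neither group compared here: without that library the log2 difference was 0.75 and passed (adjusted p = 0.0135, edgeR), in a range over all alternatives from 0.011 to 0.666. In the fit without replicate 6, 344 of 18831 genes passed. Zfp36, at 118 to 138 CPM against 141 to 148 CPM, had all 4 treated libraries lower, as in 7.69% of all genes (log2 difference -0.16, edgeR adjusted p = 0.206). Junb (-0.25, edgeR adjusted p = 0.244), Egr1 (-0.34, edgeR adjusted p = 0.27), Jun (-0.35, edgeR adjusted p = 0.607), Fos (-0.40, edgeR adjusted p = 0.795) and Fosb (-0.32, edgeR adjusted p = 0.482) had negative log2 differences without passing. Ier2 (0.00, edgeR adjusted p = 0.997) and Nr4a1 (-0.05, edgeR adjusted p = 0.828) lay near 0.

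Within groups the genes did not move as one block. After each gene's log2 CPM was centred on its group mean, the 36 pairs of the 9 tested genes had a median Pearson r of 0.05 over the 12 libraries. Pairs ran from -0.83 to 0.95. The mean of the 9 genes, centred likewise, had a median r of 0.02 with all tested genes, which is another measure than that of the pairs. The closest pairs were Fos with Dusp1 (0.951), Zfp36 with Nr4a1 (0.83) and Junb with Fos (0.724). The most opposed were Egr1 with Dusp1 (-0.826) and Fos with Egr1 (-0.788). These values are a description: all genes share the same libraries, and replicate 6 carries much of the pattern, with Fos 1.83, Dusp1 1.44 and Egr1 -0.53 from their group means on the log2 scale. Jun deviated in other libraries of the same group, by -0.82 in replicate 8, 0.80 in replicate 5 and 0.35 in replicate 7, against -0.32 in replicate 6.

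**Figure D3:**
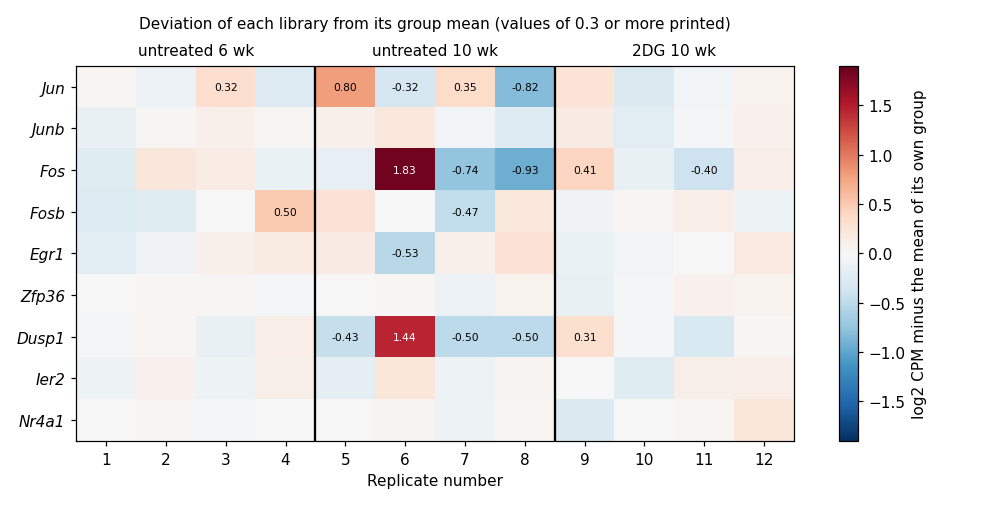
Deviation of log2 CPM from the mean of its own group (colour, log2 scale) for the 9 tested genes in the 12 libraries, with values of 0.3 or more in size printed. The largest deviations lie in untreated spleens at 10 weeks: Fos 1.83 and Dusp1 1.44 in replicate 6, and Fos -0.93 in replicate 8.

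The mean log2 CPM of the 9 tested genes, centred in the same way, was 0.33 in replicate 6 and between -0.21 and 0.09 in the other 11 libraries. Among 11521 genes with an average log2 CPM of at least 2, those with the highest Pearson r to this mean over the 12 libraries included Phf13 (0.961), Iars2 (0.95), Pnpla2 (0.942) and Pvr (0.934). These are among the largest of 11521 values over 12 shared libraries.

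Among the other AP-1 and bZIP partners, 12 of 13 listed genes were tested. With 2DG against untreated spleens at 10 weeks 3 fell, none rose and 9 did not pass, beside 7.42% called over all genes (5.26% lower). Maff, a small Maf protein, stood at 9.18, 8.26, 8.25 and 4.82 CPM untreated and at 4.00, 4.23, 2.51 and 4.24 CPM with 2DG, with no overlap (log2 change -1.02, SE 0.21, edgeR adjusted p = 0.0123). Batf, an AP-1 partner that activated B and T cells need, averaged 28.5 ± 6.63 CPM untreated and 17.3 ± 2.70 CPM with 2DG (log2 change -0.72, SE 0.17, edgeR adjusted p = 0.0235). Batf2, an interferon-inducible relative, averaged 5.17 ± 2.33 and 2.02 ± 0.187 CPM (log2 change -1.35, SE 0.30, edgeR adjusted p = 0.0185), with replicate 8 at 2.13 CPM inside the treated range. The median log2 change of the list was -0.28. None of the 3 calls held in a fit of only the compared groups, and those of Batf and Batf2 were also lost without replicate 5, 10 or 11.

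Among 33 other immediate early genes 32 were tested, of which 6 fell, 2 rose and 24 did not pass with 2DG at 10 weeks, with a median log2 change of -0.08. Of all genes tested 7.42% were called, 5.26% as lower and 2.16% as higher. Trib1, a pseudokinase that targets C/EBP factors for degradation, stood at 43.7, 37.2, 44.5 and 35.2 CPM untreated and at 24.0, 23.8, 24.2 and 26.6 CPM with 2DG (log2 change -0.70, SE 0.09, edgeR adjusted p = 0.00176). Gadd45b, a stress sensor that activates p38 and JNK signalling, stood at 51.2, 36.7, 38.0 and 43.6 CPM and at 27.8, 21.8, 24.0 and 28.9 CPM (log2 change -0.72, SE 0.12, edgeR adjusted p = 0.00407). Csrnp1, a nuclear protein of the immediate early class, stood at 72.6, 66.1, 59.1 and 55.9 CPM and at 46.1, 32.7, 34.9 and 43.6 CPM (log2 change -0.69, SE 0.11, edgeR adjusted p = 0.00402). In none of these 3 genes did the groups overlap, and their calls held with any 1 of the 12 libraries removed and in a fit of only the compared groups. The other genes that passed were named after their values were seen: Nfil3 (log2 change -0.92), Nr4a2 (-1.11) and Ier3 (-1.29) fell, and Ier5 (0.34) and Btg1 (0.30), an antiproliferative gene of resting lymphocytes, rose. All 5 of these calls were lost in a fit of only the compared groups. With 1 library removed, the call was lost in 11 of 12 fits for Btg1, 10 for Ier3, 8 for Nr4a2, 5 for Ier5 and 2 for Nfil3.

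The kinases upstream of these genes and the partners around them were counted in the same way, and their shares are to be read against the 7.42% of all genes called in this comparison. None of the 21 MAP kinase cascade genes passed with 2DG at 10 weeks (median log2 change -0.01), and the smallest p belonged to Mapk14, which encodes p38α (log2 change 0.24, edgeR adjusted p = 0.0805). Of 14 MAP kinase feedback genes 1 fell: Dusp4, a nuclear phosphatase related to Dusp1, stood at 18.1, 8.83, 17.5 and 12.0 CPM untreated and at 5.64, 5.31, 5.93 and 7.68 CPM with 2DG (log2 change -1.20, SE 0.21, edgeR adjusted p = 0.00526). Of 15 serum response and CREB factors 1 fell: Elk4, a ternary complex factor, with 279 ± 8.58 and 239 ± 10.8 CPM (log2 change -0.23, SE 0.05, edgeR adjusted p = 0.0235). Both counts of 1 are about the share called over all genes. Elk4 was lost in a fit of only the compared groups and without replicate 5, 10 or 11, and with limma voom, while Dusp4 held in those fits. None of 9 EGR and NAB partners passed, with the smallest p for Dgka (log2 change 0.15, edgeR adjusted p = 0.533). None of 13 heat shock genes passed, with the smallest p for Hspb1 (log2 change 0.76, edgeR adjusted p = 0.147). Of 16 NF-kB feedback genes, Bcl3 (log2 change -0.56, edgeR adjusted p = 0.0153) and Icam1 (log2 change -0.27, edgeR adjusted p = 0.0406) fell. Both were lost in a fit of only the compared groups; Icam1 was also lost in 7 of 12 fits with 1 library removed, with no filter and with limma voom, and Bcl3 without replicate 10 or 11.

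Zfp36 acts on mRNAs with AU-rich elements, so those mRNAs and the other factors of the decay pathway were counted too. None of 14 CCCH decay and deadenylation factors passed (median log2 change -0.01), with the smallest p for Zc3h12c (log2 change 0.58, edgeR adjusted p = 0.0773). Of 15 cytokine and chemokine mRNAs with AU-rich elements 11 were tested, 5 fell, none rose, and the median log2 change was -1.56. Over all genes 7.42% were called, 5.26% as lower. Il10, a cytokine of regulatory and effector lymphocytes, stood at 6.99, 6.71, 5.11 and 2.60 CPM untreated and at 0.800, 0.419, 0.433 and 0.848 CPM with 2DG (log2 change -3.09, SE 0.54, edgeR adjusted p = 0.00713). The chemokine gene Ccl4 stood at 4.12, 3.94, 3.51 and 1.28 CPM and at 0.421, 0.628, 0.866 and 0.893 CPM (log2 change -2.18, SE 0.41, edgeR adjusted p = 0.00886). Its neighbour Ccl3 stood at 3.34, 2.58, 2.93 and 1.32 CPM and at 0.673, 0.921, 0.736 and 0.982 CPM (log2 change -1.61, SE 0.30, edgeR adjusted p = 0.008). In all 3 the groups did not overlap, and the lowest untreated library was replicate 8. Ifng (-2.22) and Lif (-1.01), named after their values were seen, also fell, and both were lost in a fit of only the compared groups, Lif also without replicate 5, 9 or 11.

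**Figure D4:**
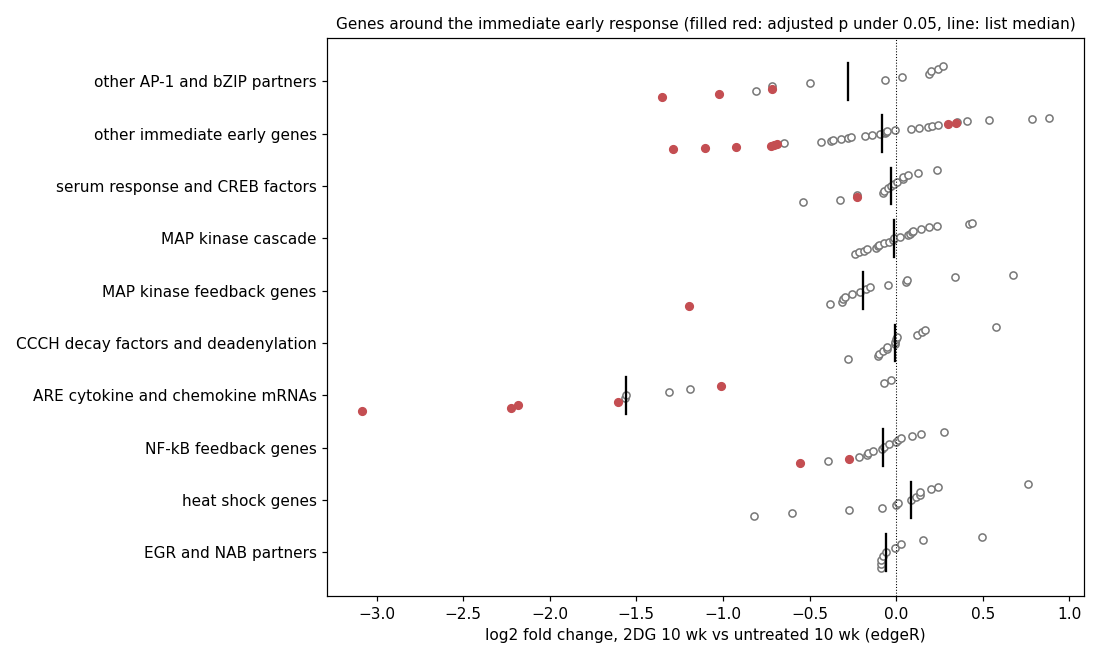
Fitted log2 fold change (horizontal axis, edgeR) for 2DG against untreated spleens at 10 weeks of each tested gene in 10 lists around the immediate early response; filled red points have an adjusted p under 0.05 and vertical lines are list medians. The cytokine and chemokine list has a median of -1.56, while the MAP kinase cascade has a median of -0.01 and no filled point.

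None of the genes in these 10 lists passed with age or for 2DG against 6 weeks. Over all 18542 genes only 1 (0.00539%) and 24 (0.129%) did, so a count of 0 says little about these lists. With age the genes with the smallest p in the 2 lists nearest to the 10 genes were Maff (7.63 ± 1.92 against 3.96 ± 0.399 CPM, log2 difference 0.94, edgeR adjusted p = 0.0934) and Nfil3 (0.85, edgeR adjusted p = 0.0997). In the other lists they were Ccl4 (1.83), Bcl3 (0.43), Bag3 (0.48), Spred1 (0.26), Srf (-0.25), Map2k6 (-0.49), Zc3h12c (-0.55) and Itch (-0.13). Without replicate 8, 9 of the 32 other immediate early genes and 2 of the 12 AP-1 partners passed with age, where 1563 of 18773 genes passed over the whole fit. For 2DG against 6 weeks the smallest p belonged to Klf10 (log2 difference 0.33, edgeR adjusted p = 0.0746) and Mafg (0.26, edgeR adjusted p = 0.169). In the other lists they were Elk4 (-0.24), Map3k1 (-0.25), Dusp8 (1.05), Rc3h2 (-0.21), Il10 (-2.03), Rel (-0.19), Dnajb1 (0.68) and Cblb (-0.26).

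Markers of splenic cell types were counted for 2DG against the untreated group at 10 weeks. Every marker list had counts in every group, and no listed marker found in the table was at 0 in all libraries. Plasma cell markers fell with 2DG in 12 of 14 genes (median log2 change -1.41), and their summed level was 4874 to 8319 CPM untreated at 10 weeks, 2191 to 3160 CPM with 2DG and 2877 to 5081 CPM at 6 weeks. Effector T cell markers fell in 8 of 13 genes (median -1.54), with sums of 139 to 287, 93.2 to 130.5 and 106 to 133 CPM in that order of groups. Il10 and Ifng are in this list as well as in the cytokine list. Of 11 monocyte markers 2 fell and of 14 splenic macrophage markers 1 fell. Of 10 dendritic cell markers 3 rose, and 1 each of 13 erythroid and 10 megakaryocyte markers rose. Of 12 stroma markers 1 rose and 1 fell. Over all genes 7.42% were called, and the single calls among macrophage, erythroid and megakaryocyte markers are near that share. These 3 lists differed in direction. All 13 erythroid markers had positive log2 changes with 2DG (median 1.06), and so had all 10 megakaryocyte markers (median 0.65). Macrophage markers split into 7 positive and 7 negative (median 0.01). No T cell, mature B cell or neutrophil marker passed, of 12, 14 and 13. With a library left out, called markers ran from 11 to 13 for plasma cells, 7 to 12 for effector T cells and 0 to 6 for dendritic cells. They ran from 0 to 8 for erythroid cells and from 0 to 4 for megakaryocytes and for monocytes. For macrophages, stroma and mature B cells the range was 0 to 3, for T cells it was 0 to 1, and no neutrophil marker passed.

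Among untreated spleens at 10 weeks, plasma cell marker sums were 8319, 4874, 7960 and 5140 CPM in replicates 5 to 8, where Jun stood at 80.5, 37.0, 58.9 and 26.1 CPM. The 2 libraries with the most plasma cell marker RNA were also the 2 with the most Jun. Replicate 6, where Fos and Dusp1 were high, had the highest neutrophil sum (3669 CPM, against 529.5 to 2814 CPM in the other 11 libraries) and the highest macrophage sum (5160 CPM, against 2068 to 3454 CPM). It also had the lowest erythroid sum (2861 CPM, against 6925 to 25928 CPM) and the lowest mature B cell sum (4826 CPM, against 5620 to 8268 CPM). In replicate 1, with the next highest neutrophil sum of 2814 CPM, Fos stood at 3.85 CPM and Dusp1 at 18.0 CPM. The part of these cell types in the levels of Jun, Fos, Dusp1 and the cytokine genes was not tested.

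**Figure D5:**
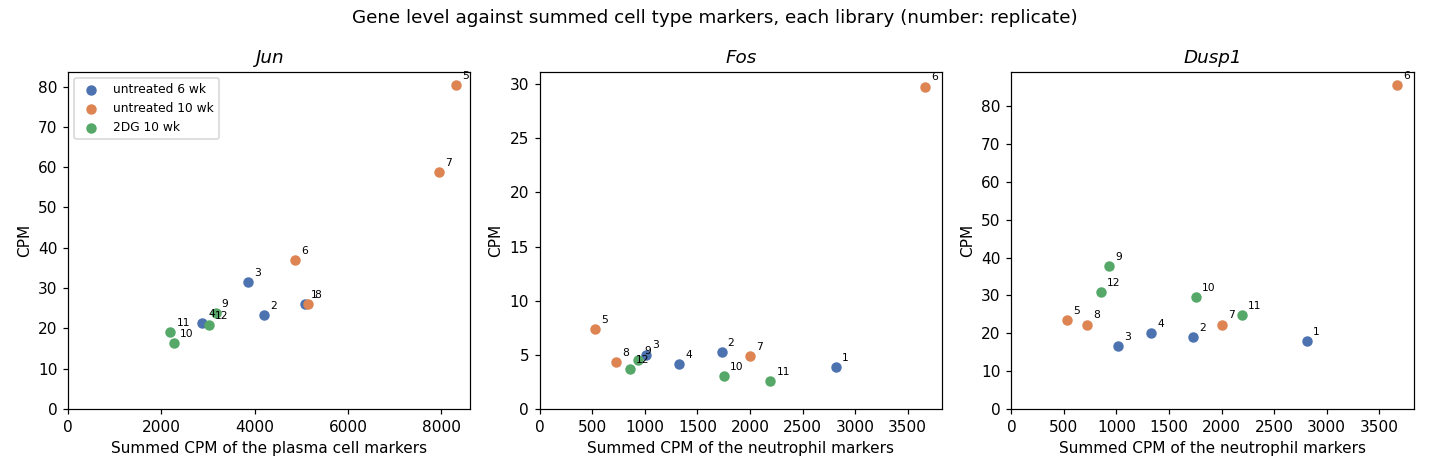
CPM of Jun, Fos and Dusp1 (vertical axes) against the summed CPM of plasma cell or neutrophil markers (horizontal axes) in the 12 libraries, labelled by replicate and coloured by group. Jun is highest in replicates 5 and 7, which have the highest plasma cell sums, and replicate 6 stands alone for Fos (29.8 CPM) and Dusp1 (85.6 CPM).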

How the data were processed

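Spleen total RNA was made into poly(A)-selected libraries by the TruSeq RNA protocol, version 2; the labels' protocols name no strand-marking step. The authors deposited whole-number counts per gene for 12 libraries. The submitters' processing notes name Bowtie2 2.2.0, RSEM 1.2.12 and GRCm38 with no step for each. The sources used here do not say how shared reads were split. Symbols, coordinates and exon lengths came from GENCODE on GRCm38, and 53620 of 53715 identifiers matched.

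Tests used edgeR 4.0.16 in R 4.3.3: filterByExpr by group, TMM, and quasi-likelihood fits (robust) of group means over all 12 libraries (18542 genes), with Benjamini-Hochberg adjustment over all genes, called at 0.05. CPM used TMM library sizes, and log2 CPM for correlations used a prior count of 2. The fit was tested on counts simulated with the same spread per gene in every group, so the unequal spread of these groups was not covered by that test. Alternatives were DESeq2 1.42.0, limma 3.58.1 (voom with quality weights), other size factors, filters and samples, and each library left out in turn.

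The 10 genes and the lists were chosen with earlier results of these data known. Named list genes were the 3 most significant called genes per list and comparison or, with none called, the 1 with the smallest p. The likeness rule was written for the mean of all 10 genes; Egr2, which failed the filter, was left out of that mean. That rule names 5 genes, of which 1 is not reported here.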

Additional observations from a re-analysis of the deposited data

Results flagged for a closer look

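Within each group of 4 libraries, the highest and lowest CPM of each of the 10 genes were set against Dixon's 95% criterion for a sample far from the others, which makes 30 groups of 4. Chance flags about 1 in 20 such groups. Both values that stood apart came from replicate 6 of the untreated spleens at 10 weeks. Fos stood at 29.8 CPM there, with the next library at 7.41 CPM, so that the gap took 0.878 of the group's range. Dusp1 stood at 85.6 CPM there, with the next library at 23.4 CPM and a gap of 0.983 of the range.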

How the results depend on the processing

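With age, edgeR called 1 gene, against 102 with no filter, 0 in a fit of only the compared groups, 0 with limma voom and 682 with DESeq2; leaving out a library gave 0 to 1563, the highest without replicate 8. Of the 9 tested genes none was called with age, against 1 with DESeq2, and 0 to 1 with a library left out. For 2DG at 10 weeks 1376 genes became 581 in the fit of the compared groups, 886 with voom and 2304 with DESeq2, and 514 to 2209 with a library left out. The 3 called genes of the 9 became 1, Junb, with no filter, 0 in the fit of the compared groups, 2 with voom and 4 with DESeq2. With a library left out they became 0 to 3 (0 without replicate 10 or 11, 1 without replicate 5). For 2DG against 6 weeks 24 genes became 98 with no filter, 1367 in the fit of the compared groups, 1312 with voom and 902 with DESeq2, and 1 to 354 with a library left out; the 0 of 9 genes became 2 in the fit of the compared groups, and 0 to 1 with a library left out. Of the 9 genes only Fosb, Dusp1, Ier2 and Nr4a1 changed sign in any alternative run. With a library left out, 2DG at 10 weeks gave log2 changes of -0.513 to 0.440 for Dusp1 (the highest without replicate 6), -0.0876 to 0.157 for Fosb, -0.0303 to 0.110 for Ier2 and -0.122 to 0.0449 for Nr4a1. With age they ran from -0.110 to 0.0305 for Ier2 and from -0.0274 to 0.0215 for Nr4a1, and for 2DG against 6 weeks from -0.0456 to 0.072 for Ier2 and from -0.136 to 0.0308 for Nr4a1. Ier2 was 0.00619 with no filter in the last comparison. The cause was not tested for any of these. Of 60 group means recomputed by library total alone or by median-of-ratios factors, 2 moved by more than 1 SD, both by library total: Zfp36 to 149 CPM and Nr4a1 to 37.0 CPM at 6 weeks. List counts, tried with alternatives chosen after seeing the data, ran from 1 to 4 AP-1 partners, 3 to 10 other immediate early genes, 4 to 6 cytokine mRNAs and 0 to 3 NF-kB feedback genes for 2DG at 10 weeks with a library left out. No paired analysis was possible because replicate numbers run on across groups and pair no samples. Depth limits Egr2, at 2 to 9 counts per library: it failed the filter and was not among the calls with no filter or with DESeq2.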
